A study of Mus musculus with 8 samples.

Results

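The 43 proteasome subunit genes described here are those whose symbols are Psma, Psmb, Psmc, Psmd or Psme followed by a number. They were taken from the 24420 rows in a table of total RNA counts from mouse embryonic neural tube or brain. The same symbols were looked up in a table of polysomal RNA counts, which listed 20 of the 43 among its 5804 rows. Of the 43 genes, 39 had enough counts in total RNA to be tested, among 14594 genes tested. The other 4 (Psma8, Psmb8, Psmb9 and Psmb11) were too low.

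The proteasome is the large protease that degrades proteins tagged with ubiquitin. Its core particle is a barrel of stacked rings, with outer rings of alpha subunits that form the gate and inner rings of beta subunits, some of which cut peptide bonds. A regulatory particle sits on the barrel: its base holds a ring of ATPases that unfold the substrate and non-ATPase scaffold subunits, and its lid removes ubiquitin. Assembly chaperones help to build the base, and activators can replace the regulatory particle. In many cells the transcription of subunit genes is raised together when proteasome activity falls short, through Nfe2l1 acting at antioxidant response elements.

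RNA came from neural tube or brain of mouse embryos at E11.5. The WT embryos were wildtype, and the double knockout (dKO) embryos were Lin28a-/-;b-/-, targeted in both Lin28 genes, whose RNA-binding proteins block the maturation of let-7 microRNAs and bind many messenger RNAs. Each genotype was sequenced as total RNA and as polysomal RNA, the RNA carried on several ribosomes at once, which gave 4 groups of 2 libraries. The series title concerns the part of Lin28 in protein synthesis and in the maintenance of neural progenitors. Nothing in the labels states that replicates came from different embryos or litters, and the p-values therefore reflect the spread between these libraries, which may be technical.

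Total RNA libraries held 15060560 to 15768767 counts. The polysomal columns summed to 3740980 to 15414712 counts over the listed genes only, which is not their depth. In total RNA, Lin28a was at 73.3 and 72.2 CPM (counts scaled to library size, with TMM factors) in WT and at 6.55 and 7.73 CPM in dKO. Lin28b was at 128 and 123 CPM in WT and at 48.0 and 55.1 CPM in dKO, so each targeted gene was below its WT range in both dKO libraries and neither was at 0, and a count over a whole gene cannot locate the reads that remained. The replicates differed by more than counting noise in every group, with a chi-square per degree of freedom of 24.8 in dKO polysomal RNA and 2.88 to 3.19 in the other 3 groups. Markers of neural progenitors and neurons were all present, and all 6 red cell markers were lower in dKO total RNA, their summed level falling from 4327 and 4395 CPM to 2635 and 2635 CPM.

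The first question was whether subunit mRNAs were more or less abundant in dKO than in WT tissue. Transcripts of most subunit genes were lower in dKO total RNA, by small amounts, and none was higher. Of the 39 genes tested, 29 fell and 0 rose at an adjusted p of 0.05 (edgeR quasi-likelihood test, adjusted over all genes tested), while 16% of all genes were called lower, 14.7% higher and 30.7% in either direction. The median log2 fold change, dKO minus WT, was -0.25 over the tested subunit genes and 0.00 over all genes, and single values ran from -0.59 to 0.02. The summed level of the 43 genes was 4715 and 4662 CPM in WT and 3900.4 and 3932 CPM in dKO. Both dKO libraries lay below both WT libraries for 30 of the 39 genes, and both lay above for 0; among all genes tested these shares were 31.2% and 31%. In bulk tissue, fewer cells of a type and less RNA per cell cannot be told apart. The erythroid decrease moved with this result, and its part in it was not tested; the endothelial list had no called gene, and 3 of 5 mesenchyme, 3 of 6 neural progenitor, 2 of 6 neuron and 1 of 6 macrophage markers were lower, with 1 progenitor, 2 neuron and 1 macrophage marker higher.

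**Figure D1:**
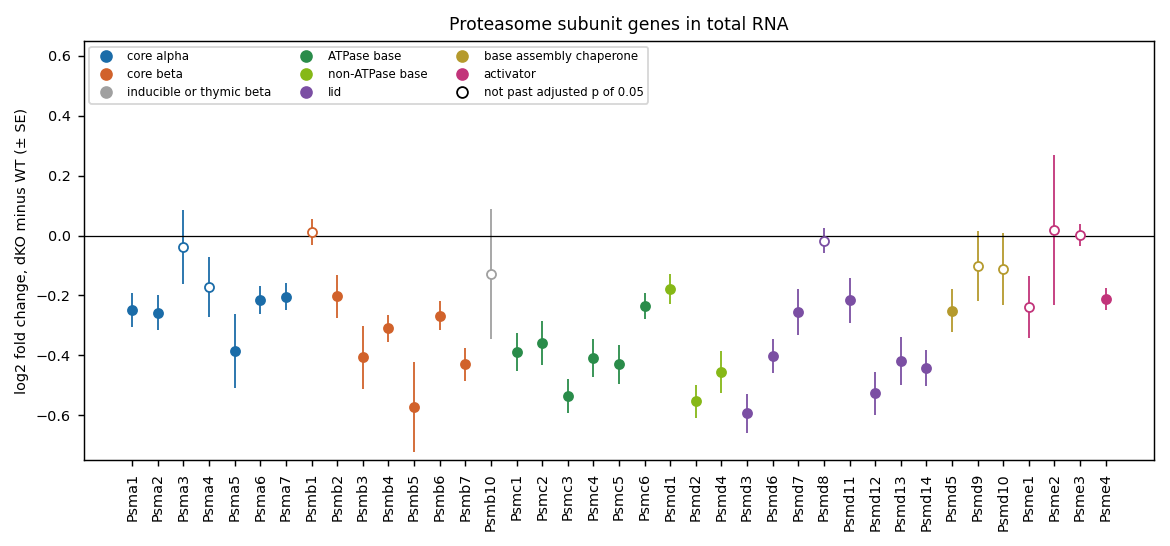
Log2 fold change, dKO minus WT, in total RNA for the 39 tested subunit genes, coloured by role, with standard errors (vertical bars) from 2 libraries per genotype. Filled points passed an adjusted p of 0.05. Values run from -0.59 (Psmd3) to 0.02 (Psme2), and no filled point lies above 0.

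The decrease differed in size by role. Among the 14 tested genes of the constitutive core 11 fell, with a median log2 fold change of -0.25. Among the 17 genes of the base and lid 16 fell, with a median of -0.41. Of the 7 activator and assembly chaperone genes 2 fell, Psme4 and Psmd5. These counts describe the roles, and the difference between roles was not tested.

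In the alpha rings 5 of 7 tested genes fell, with a median log2 fold change of -0.22. The largest decrease was that of Psma5, at 26.1 and 28.4 CPM in WT and 20.9 and 20.9 CPM in dKO (log2 fold change -0.38 ± 0.12 (SE), adjusted p = 0.00869). Its call was lost without dKO replicate 1 (adjusted p = 0.0562), dKO replicate 2 (0.0537) or WT replicate 2 (0.101), and 55.4% of its 50-base stretches also occur in transcripts of other genes, so its count is uncertain. Psma6, the most abundant alpha gene per length, was at 208 and 221 CPM in WT and at 181 and 188 CPM in dKO, a decrease of 0.22 ± 0.05 on the log2 scale with no overlap between genotypes. Psma1, Psma2 and Psma7 fell by similar amounts, with log2 fold changes of -0.25 ± 0.06, -0.26 ± 0.06 and -0.20 ± 0.05. Without WT replicate 1 the call of Psma2 was lost (log2 fold change -0.15, adjusted p = 0.117). Psma3 (-0.04 ± 0.12) and Psma4 (-0.17 ± 0.10) did not pass. Their counts are uncertain too, as 22% and 31.5% of their 50-base stretches also occur in transcripts of other genes. Here and below, shared stretches were sought in the other transcripts and in their reverse complements.

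In the beta rings 6 of 7 constitutive genes fell, with a median of -0.31. Psmb5 encodes the chymotrypsin-like protease subunit and lies on chromosome 14 at 54614119 to 54618022 (minus strand, GRCm38). It was at 19.6 and 17.9 CPM in WT and at 12.8 and 12.4 CPM in dKO, a 1.49-fold decrease (log2 fold change -0.57 ± 0.15, adjusted p = 0.000927). All its dKO values lay below its WT values, and because 57.1% of its 50-base stretches recur in transcripts of other genes, such as Gm3375, this count is uncertain too. Psmb7, the trypsin-like subunit, was at 152 and 146 CPM in WT and at 113 and 109 CPM in dKO (-0.43 ± 0.06, adjusted p = 3.49e-13). Of its 50-base stretches 28.1% also occur in transcripts of Nek6 or in their reverse complements. Which orientation was not recorded, and the strand setting of the counting was not given, so its count is uncertain as well. Psmb6, the caspase-like subunit, was at 188 and 180 CPM in WT and at 150 and 156 CPM in dKO (-0.27 ± 0.05, adjusted p = 7.62e-07). All 3 catalytic subunit genes were thus lower in every dKO library, with the counts of Psmb5 and Psmb7 uncertain.

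The other beta subunits have no protease site of their own. Psmb3 (-0.41 ± 0.11) and Psmb4 (-0.31 ± 0.05) fell without overlap between genotypes. Of the 50-base stretches of Psmb3, 55.8% also occur in transcripts of other genes, so its count is uncertain. Psmb1 was at 214 and 204 CPM in WT and 212 and 209 CPM in dKO (0.01 ± 0.04, adjusted p = 0.882), so its libraries overlapped. Psmb2 was called lower (-0.20 ± 0.07, adjusted p = 0.0184) although its dKO libraries, at 75.2 and 64.2 CPM, overlapped with the WT libraries at 75.0 and 85.6 CPM. This call was lost with DESeq2 (adjusted p = 0.13), without dKO replicate 2 (log2 fold change -0.09, adjusted p = 0.509) and without WT replicate 2 (-0.11, adjusted p = 0.435).

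Inducible beta subunits replace the constitutive proteases in immune cells and after interferon. Psmb8 had 9 and 12 counts in the WT libraries, against 3 and 4 in the dKO libraries. Psmb9 had 4 and 9 WT counts and 4 and 7 dKO counts. Both were near the detection limit, too low for the test. Psmb10, the third member, had 142 and 100 WT counts and 110 and 114 dKO counts, and its libraries overlapped (log2 fold change -0.13 ± 0.22, adjusted p = 0.714). Psmb11, which belongs to the thymus, had 0 counts in both WT libraries and 4 and 0 in dKO. Psma8, a testis alpha subunit, had 6 and 4 WT counts and 0 and 2 dKO counts.

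All 6 ATPase genes of the base fell, with a median log2 fold change of -0.40. Psmc3 (chromosome 2, 91054009 to 91066369, plus strand) was at 153 and 153 CPM in WT and at 105 and 106 CPM in dKO, a 1.45-fold decrease (-0.54 ± 0.06, adjusted p = 5.77e-20). The replicates of each genotype were close together and far from the other genotype. Psmc5 (-0.43 ± 0.06), Psmc4 (-0.41 ± 0.06), Psmc1 (-0.39 ± 0.06) and Psmc2 (-0.36 ± 0.07) followed, and the smallest change was that of Psmc6 (-0.23 ± 0.04), at 243 and 220 CPM in WT and 194 and 198 CPM in dKO. No ATPase gene had overlapping genotypes.

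The 3 non-ATPase genes of the base fell as well. Psmd2 encodes a large scaffold on which shuttle proteins and a deubiquitinase dock (chromosome 16, 20651652 to 20663414, plus strand). It was at 151 and 153 CPM in WT and at 105 and 102 CPM in dKO, 1.47-fold lower (-0.55 ± 0.06, adjusted p = 5.37e-21). Of its 50-base stretches 26.4% occur in other genes as well, such as Gm5422, so its count is uncertain. Psmd4, a ubiquitin receptor (chromosome 3, 95032694 to 95042614, minus strand), was at 84.2 and 94.2 CPM in WT and at 68.9 and 61.1 CPM in dKO (-0.46 ± 0.07, adjusted p = 2.9e-09). For both genes the dKO libraries lay below the WT libraries. Psmd1, the other large scaffold, changed least, at 196 and 165 CPM in WT and 164 and 155 CPM in dKO (-0.18 ± 0.05, adjusted p = 0.00166). Its call rested on WT replicate 1, without which its log2 fold change was -0.05 (adjusted p = 0.604); it was also lost without dKO replicate 2 (-0.14, adjusted p = 0.105) and with DESeq2 (adjusted p = 0.331).

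In the lid 7 of 8 genes fell, with a median of -0.41. Psmd3, a lid scaffold subunit (chromosome 11, 98682554 to 98695979, plus strand), had the largest decrease of the tested subunit genes, from 112 and 115 CPM in WT to 71.8 and 78.5 CPM in dKO (113 ± 1.78 against 75.2 ± 4.78, mean ± SD, n = 2 each). This was a 1.51-fold decrease (log2 fold change -0.59 ± 0.07, adjusted p = 7.53e-18). None of its 50-base stretches occurs in another gene's transcripts. Psmd12, another scaffold subunit (chromosome 11, 107479484 to 107504362, plus strand), was at 92.0 and 83.4 CPM in WT and at 60.1 and 61.7 CPM in dKO (-0.53 ± 0.07, adjusted p = 8.9e-12). In both genes the lowest WT library stood well above the highest dKO library.

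Psmd14 is the lid enzyme that cuts ubiquitin chains off the substrate. It was at 128 and 128 CPM in WT and at 98.5 and 89.5 CPM in dKO (-0.44 ± 0.06, adjusted p = 6.12e-12). Its partner gene Psmd7 fell less (-0.25 ± 0.08), and this call was lost without dKO replicate 1 (adjusted p = 0.167) or WT replicate 1 (0.0757). Psmd13 (-0.42 ± 0.08) and Psmd6 (-0.40 ± 0.06) fell without overlap. Of the 50-base stretches of Psmd13 and Psmd11, 15.8% and 18.9% are shared with other genes. The shares are 17.6% for the ATPase gene Psmc1 and 14.1% for the activator gene Psme1, so these counts are uncertain to that extent. Psmd11 (-0.22 ± 0.07) was called, but not with DESeq2 (adjusted p = 0.0713) nor when dKO replicate 1 (0.0522), dKO replicate 2 (0.121) or WT replicate 2 (0.244) was left out. Psmd8, the most abundant lid gene per length, was at 228 and 230 CPM in WT and at 222 and 230 CPM in dKO (-0.02 ± 0.04, adjusted p = 0.818), so its genotypes overlapped.

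The assembly chaperones act only while the base is built. Psmd5 fell (-0.25 ± 0.07, adjusted p = 0.00248), a call lost without dKO replicate 2 (adjusted p = 0.0932) or WT replicate 2 (0.144). Psmd9 (-0.10 ± 0.12) and Psmd10 (-0.11 ± 0.12) did not pass. Among the activators, Psme4, which caps core particles in the nucleus, fell from 363 and 356 CPM to 305 and 316 CPM (-0.21 ± 0.04, adjusted p = 7.57e-08). Psme3, the nuclear ring activator, was at 330 and 325 CPM in WT and at 322 and 333 CPM in dKO, which overlap (0.00 ± 0.04, adjusted p = 0.991). Psme1, a subunit of the interferon-inducible activator, was lower in both dKO libraries (32.5 and 34.6 against 39.7 and 39.5 CPM) without passing the test (-0.24 ± 0.10, adjusted p = 0.0628). Its partner Psme2 was at 4.52 and 6.62 CPM in WT and 5.73 and 5.54 CPM in dKO, and 59.3% of its 50-base stretches are shared, mainly with Psme2b.

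**Figure D2:**
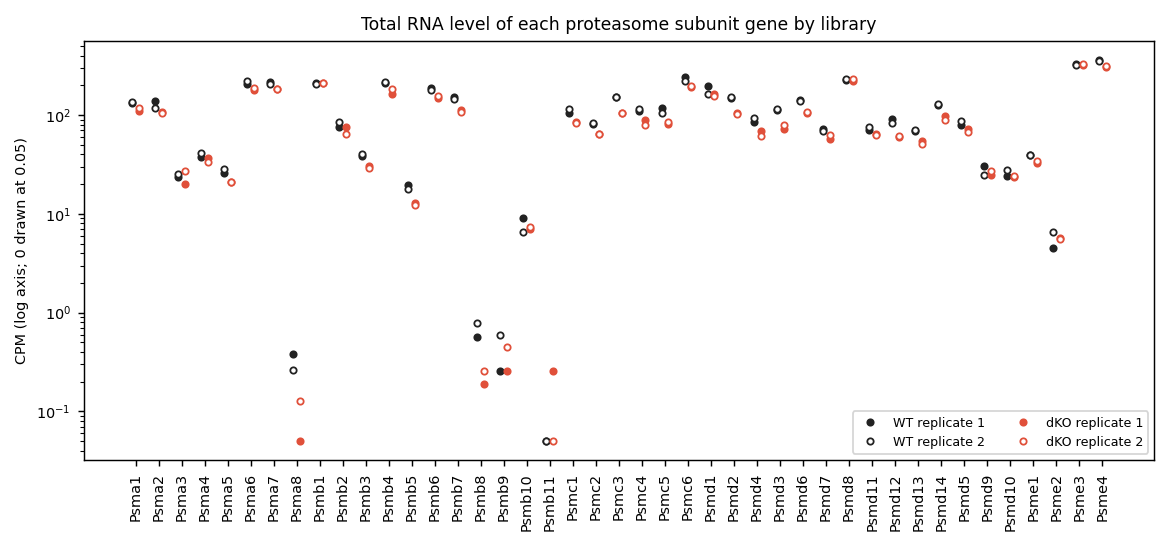
CPM of each of the 43 genes in the 4 total RNA libraries, on a log axis, with genes ordered by role, WT in black, dKO in red, and replicate 2 as open points. Psma8, Psmb8, Psmb9 and Psmb11 lie below 1 CPM in every library, while red points sit under black points for most constitutive genes.

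Of the 29 calls, 20 held under every alternative in which they were computed, and no change of direction occurred. In a fit of all 8 libraries, which tests only the 20 genes in both tables, 12 were called lower, against 12% of all genes in that fit. The log2 fold change was only weakly related to the GC content of the transcript across the 39 genes (Pearson r = -0.309, Spearman rho = -0.307, a description across genes).

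Promoters were compared because so many members fell together. RefSeq promoter windows (GRCm38.p6, 250 bases before to 50 after the start) were matched for 36 of the 43 genes. No window was matched for Psma8, Psmb1, Psmb2, Psmb7, Psmc3, Psmd3 and Psmd7. The comparison therefore leaves out some large decreases (Psmd3 -0.59, Psmc3 -0.54) as well as the unchanged Psmb1 (0.01). The antioxidant response element was searched as TGACNNNGC on both strands, and occurred in 6 of the 36 windows (16.7%), against 14% of all 27025 windows and 16.8% of the 10934 windows of genes tested. It was found in Psmb5, Psmb6, Psmc6, Psmd9, Psmd12 and Psme4. The following stretches show it, or its reverse complement, in capitals in 4 of these genes, namely 2 protease subunits, an ATPase and the lid gene with a large decrease.

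Psmb5, chr14:54618008-54618067, minus strand: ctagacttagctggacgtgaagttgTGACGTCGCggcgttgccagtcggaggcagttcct
Psmb6, chr11:70525297-70525356, plus strand: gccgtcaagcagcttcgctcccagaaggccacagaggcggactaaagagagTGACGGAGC
Psmc6, chr14:45329574-45329633, plus strand: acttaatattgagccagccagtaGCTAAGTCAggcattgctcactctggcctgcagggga
Psmd12, chr11:107479278-107479337, plus strand: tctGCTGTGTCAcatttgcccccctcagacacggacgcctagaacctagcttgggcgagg

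The other 3 motifs were read on both strands too; these and the element were picked from 12 counted motifs after their counts were seen. CCGGAAG, a long form of the core of sites bound by ETS factors, is called the ETS core here. It occurred in 12 of 36 windows (33.3%), against 9.93% of all windows and 18.4% of those of tested genes. The shorter CCGGAA, also among the 12 counted, occurred in 17 of 36 (47.2%), against 16.7% and 29.1%. CCAAT occurred in 14 of 36 (38.9%), against 41.1% and 42.7%. GGGCGG, the GC box, occurred in 22 of 36 (61.1%), against 38.2% and 68.9%. In this longer form the ETS core was absent from the windows of Psmb5, Psmd14 and Psmc5, which also had large decreases (log2 fold changes -0.57, -0.44 and -0.43). The window of Psmc5 did hold the shorter CCGGAA. Holders of the ETS core included genes with large decreases (Psmd2, Psmd12, Psmd4) and one that did not change detectably (Psme3). The stretches just before the start of Psmd2, Psmd4 and Psme3 show this range, with matches to any of the 3 motifs or their reverse complements in capitals; the ETS core of Psmd4 lies outside the stretch shown.

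Psmd2, chr16:20651532-20651651, plus strand: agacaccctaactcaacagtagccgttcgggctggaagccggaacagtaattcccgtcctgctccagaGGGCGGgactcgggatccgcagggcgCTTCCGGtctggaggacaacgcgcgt
Psmd4, chr3:95042615-95042734, minus strand: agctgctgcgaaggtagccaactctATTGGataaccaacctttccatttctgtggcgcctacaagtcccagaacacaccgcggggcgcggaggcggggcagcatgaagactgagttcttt
Psme3, chr11:101316093-101316212, plus strand: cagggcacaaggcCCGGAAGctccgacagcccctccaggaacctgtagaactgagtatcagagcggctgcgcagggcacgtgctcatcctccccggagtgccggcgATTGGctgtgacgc

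Target sites of let-7 were also looked for, since Lin28 blocks the maturation of these microRNAs. The mature sequence of let-7a, from RefSeq, is shown with its seed (bases 2 to 8) in capitals, and the let-7 family shares it.

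mmu-let-7a-5p: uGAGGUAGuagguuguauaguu

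Sites matching this seed, CTACCTC or TACCTCA on the transcript strand, were absent from the annotated 3' UTRs of all 43 subunit genes (0 of 43). Either form occurs in 18.4% of 13278 tested genes with an annotated 3' UTR, and CTACCTC in 11.4%. The UTRs differ in length, with a median of 296 bases for the longest UTR of a subunit gene and 1258 for that of all genes tested. No match says only that these letters are not in the annotated UTRs.

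Levels were compared between genes per kilobase of transcript in WT total RNA. With the median length of a gene's coding transcripts, the group medians were 54.1 CPM per kb for alpha genes, 119 for constitutive beta genes, 84.2 for ATPases and 81.8 for lid genes. With the longest transcript these were 39.1, 106, 81.0 and 49.0 CPM per kb. Subunits that occur together in 1 ring thus differed in mRNA level: among constitutive beta genes Psmb6 was at 231 ± 6.37 CPM per kb and Psmb5 at 24.6 ± 1.63 (SD, n = 2), a 9.36-fold range, in which the shared stretches of Psmb5 have a part that was not tested. ATPase genes were closer together, from 46.2 (Psmc2) to 103 CPM per kb (Psmc6), a 2.24-fold range under either length.

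Inducible and thymic beta genes had the lowest group median, 0.809 CPM per kb by the median and 0.367 by the longest transcript. Assembly chaperone genes had 33.5 and 18.1 CPM per kb, and non-ATPase base genes 68.4 and 51.3. The activators depend most on the length used, with a median of 262 or 45.5 CPM per kb, since the median length of Psme4 is 657 bases and its longest transcript has 6491. Psme4 was accordingly at 547 or 55.4 CPM per kb, Psme3 at 469 or 123, and Psmd2 at 231 or 51.3. For 13 of the 43 genes, among them Psma3, Psmd9 and Psmd11, the 2 lengths differ by over 1.5-fold, so the order of these genes among the others is not settled by the data.

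**Figure D3:**
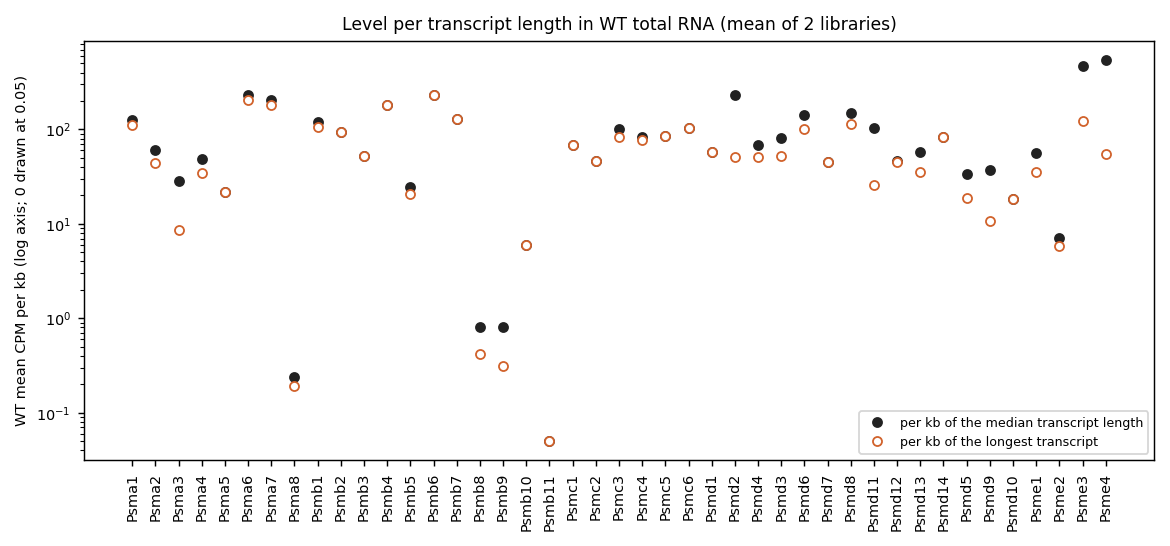
Mean CPM per kb of each gene in WT total RNA (2 libraries), on a log axis, with the median length of coding transcripts (filled) or the longest transcript (open). For 14 of the 43 genes both lengths are equal, and for 13 they differ by over 1.5-fold; Psme4 moves furthest, from 547 to 55.4 CPM per kb.

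Other genes of the pathway were more often lower than higher in dKO total RNA. Of 27 further genes in the total RNA table, all of them tested, 10 fell and 1 rose (16% of all genes fell and 14.7% rose), with a median log2 fold change of -0.09. Psmg1, a chaperone of alpha ring assembly, fell by 0.52 ± 0.10 on the log2 scale (adjusted p = 6.54e-06), and the extraction ATPase gene Vcp changed by -0.45 ± 0.12 (adjusted p = 0.000689). Uba1, the ubiquitin-activating enzyme, changed by -0.35 ± 0.05 (adjusted p = 6.41e-12). The gene that rose was Nfe2l2 (0.33 ± 0.13, adjusted p = 0.0392), and Nfe2l1 was at 0.06 ± 0.04 (adjusted p = 0.292).

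The second question was how the subunit mRNAs on polysomes differed between genotypes. The polysomal table held only part of the transcriptome. Of its 5441 genes averaging 100 counts or more, no gene lay between -2.04 and -1.71 in the log2 ratio of summed dKO to summed WT counts. An empty interval of this kind shows that genes were listed for differing between genotypes, and every p-value within the table is conditional on that choice. Of the tested subunit genes 51.3% were listed, against 39.3% of all genes tested in total RNA; at an average of 500 counts or more the shares were 56.2% and 61.3%. By role, 4 of 8 alpha, 4 of 7 constitutive beta, 4 of 6 ATPase, 4 of 8 lid, 2 of 3 assembly chaperone and 2 of 4 activator genes were listed, and 0 of the 3 non-ATPase base and 0 of the 4 inducible and thymic genes.

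Of the 20 listed subunit genes, 17 were lower on dKO polysomes and 3 were higher. As 52.5% of all genes tested were called lower, 47.2% higher and 99.7% in either direction, being called carries little here, and the sizes and directions are of more use. The median log2 fold change was -0.47 over the subunit genes and -0.35 over all genes. All 4 listed alpha genes, 3 of 4 beta genes, 2 of 4 ATPase genes and all 4 lid, 2 chaperone and 2 activator genes were lower. Markers of cell types moved in the same comparison, and their part in it was not tested. All 5 listed erythroid markers were lower (median -1.28; summed level 8797 and 8669 CPM in WT, 4885 and 4919 CPM in dKO) and 3 of 4 neuron markers were lower (median -0.92; 3974 and 3994 CPM against 2428 and 2553 CPM). All 4 mesenchyme markers were higher (median 1.30; 256 and 264 CPM against 873 and 716 CPM), as were the 1 listed macrophage and lymphoid marker and the 1 listed endothelial marker. Of 5 neural progenitor markers, 3 were higher and 2 lower (median 0.21).

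Psma2, an alpha subunit gene, was at 236 and 242 CPM in WT and at 58.5 and 85.3 CPM in dKO polysomal RNA, a 3.29-fold decrease (-1.72 ± 0.16, adjusted p = 0.000264). Psmd10, the assembly chaperone gankyrin, was at 46.4 and 43.6 CPM in WT and at 9.41 and 15.6 CPM in dKO, 3.51-fold lower (-1.81 ± 0.24, adjusted p = 0.000766). In both genes the genotypes were far apart, and dKO replicate 1 was the lower dKO library. Psmd12 (-1.38 ± 0.10), Psma4 (-1.25 ± 0.20), Psma1 (-1.23 ± 0.15) and Psmc6 (-1.11 ± 0.09) also fell by over 1 on the log2 scale. Psmb7 fell by 0.97 ± 0.15 on the log2 scale, and the other 10 lower genes had values from -0.71 (Psmd14) to -0.25 (Psmb1). The counts of Psma4 and Psmb7 are uncertain here too, because of the shared stretches given above.

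The 3 higher genes were a protease subunit and 2 ATPases. Psmb5 was at 33.0 and 34.2 CPM in WT and at 62.6 and 51.8 CPM in dKO (0.76 ± 0.15, adjusted p = 0.00355). Psmc3 was at 257 and 240 CPM in WT and at 500 and 364 CPM in dKO (0.79 ± 0.15, adjusted p = 0.00257). Psmc5 was at 193 and 188 CPM in WT and at 239 and 242 CPM in dKO (0.33 ± 0.07, adjusted p = 0.00446). The genotypes did not overlap in any of the 3, but genes were listed for differing between genotypes, so this carries little. In total RNA the same 3 genes were lower in dKO. The count of Psmb5 is uncertain here too, because of its shared stretches. Psmc5 was not called without WT replicate 1 (adjusted p = 0.0702) or WT replicate 2 (0.0973).

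**Figure D4:**
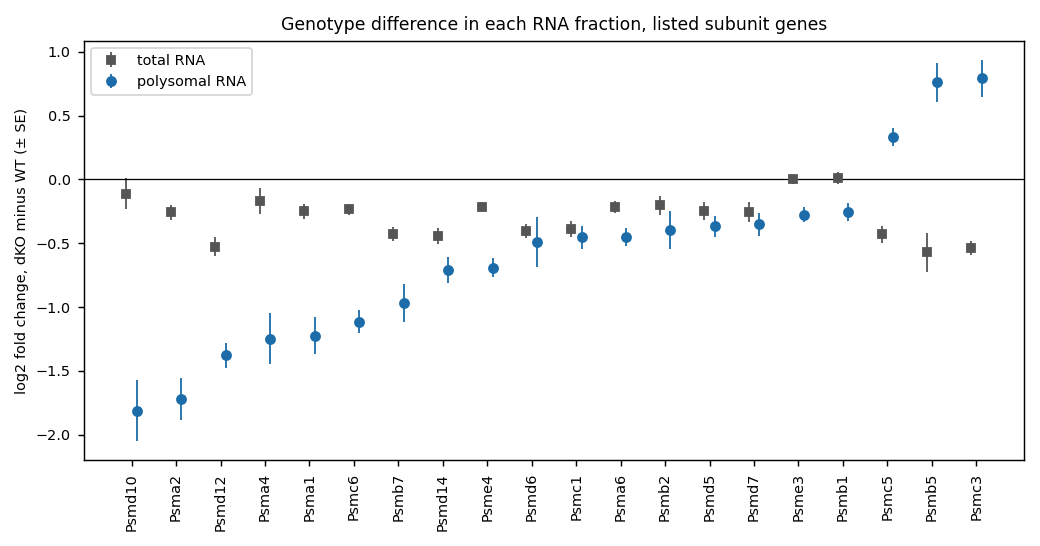
Log2 fold change, dKO minus WT, with standard errors, of the 20 subunit genes listed in both tables, in total RNA (grey squares) and polysomal RNA (blue circles), ordered by the polysomal value. Polysomal values run from -1.81 (Psmd10) to 0.79 (Psmc3), a far wider range than the total RNA values of the same genes. Genes were listed for a polysomal difference between genotypes, with no such choice in total RNA, so the ranges cannot be compared directly.

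The count of lower genes depended on the scaling. With RLE scaling, which moved the median of all genes up by 0.24 on the log2 scale, 10 subunit genes were called lower (41.5% of all genes), and DESeq2 called 9 (37.8%). Psmb1 and Psme3 were then at -0.02 and -0.04. The polysomal difference also followed transcript GC content: over the 20 genes Pearson r was 0.784 and Spearman rho 0.692, and over 5572 genes of the table they were 0.664 and 0.769. These points share the same 4 libraries. Psmc6, at 37.0% GC, was strongly lower, and Psmb5 and Psmc3, at 57.1% and 55.1% GC, were higher.

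With an offset that takes out this GC trend, and with it the median of all genes, 6 subunit genes were lower and 7 higher, against 23.8% and 24.1% of all genes. The lower genes were Psma1 (-0.37), Psma2 (-0.63), Psma4 (-0.56), Psmb7 (-0.56), Psmd10 (-0.81) and Psmd12 (-0.63). Thus 6 of the 7 largest decreases kept their direction and call, and Psmc6 did not (0.29). The rises of Psmb5 (-0.09, adjusted p = 0.636) and Psmc3 (0.11, adjusted p = 0.482) were no longer called, and that of Psmc5 was (0.22, adjusted p = 0.0358).

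**Figure D5:**
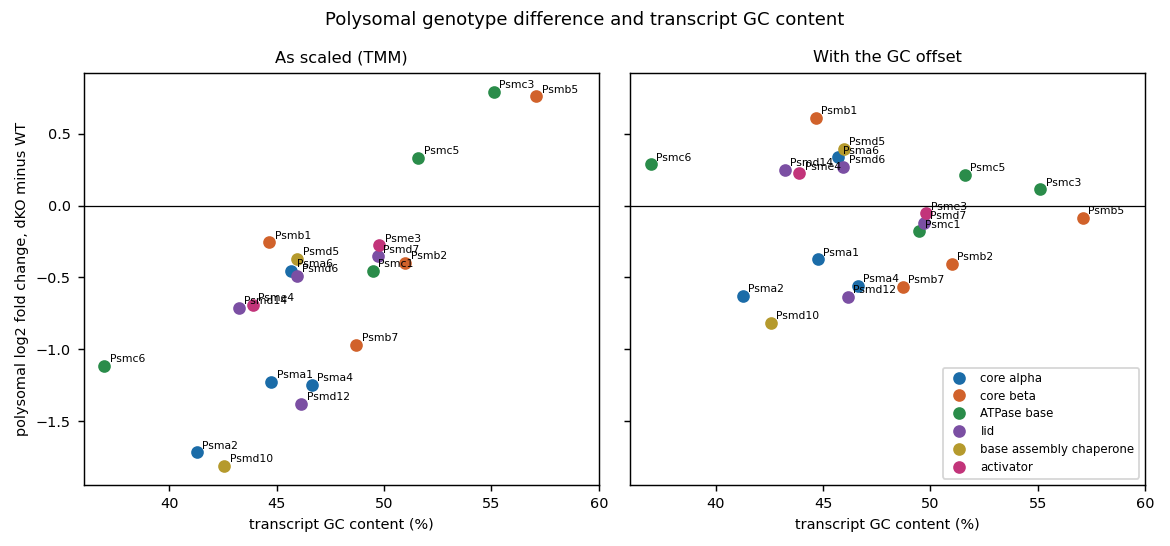
Polysomal log2 fold change, dKO minus WT, of the 20 listed subunit genes against transcript GC content (%), as scaled by TMM (left) and with the GC offset (right), coloured by role. On the left, values run from -1.81 at 42.6% GC (Psmd10) to 0.79 at 55.1% GC (Psmc3). Psmc6, at 37.0% GC, lies there at -1.11, and Psmb5, at 57.1% GC, at 0.76. On the right, Psmb5 lies at -0.09 and Psmc6 at 0.29.

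The interaction of genotype and fraction tested whether the genotype difference itself differed between polysomal and total RNA. It was negative for 11 of the 20 genes and positive for 3 past the threshold, where 45.8% and 43.7% of all genes were called (89.5% in either direction). Psmb5 rose by 1.37 ± 0.19 relative to its change in total RNA and Psmc3 by 1.36 ± 0.16. Psmd10 changed by -1.65 ± 0.25 and Psma2 by -1.41 ± 0.18. All 4 alpha genes had negative values, and the 2 largest positive values were in a beta and an ATPase gene. This contrast did not hold with the GC offset, where 1 gene was called lower and 9 higher (22.1% and 21.3% of all genes). Psma6 was then higher (0.52 ± 0.08, adjusted p = 0.000365), and Psma1 (-0.14, adjusted p = 0.367), Psma2 (-0.34, adjusted p = 0.0723) and Psma4 (-0.41, adjusted p = 0.116) were not called. Psmb5 was not called either (0.50 ± 0.19, adjusted p = 0.0514), while Psmc3 stayed higher (0.66 ± 0.14, adjusted p = 0.00225) and Psmd10 lower (-0.69 ± 0.23, adjusted p = 0.0317).

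The last comparisons set polysomal against total RNA within each genotype, over the genes in both tables. In WT, 4 of the 20 subunit genes were higher in polysomal RNA and 0 lower, against 3.47% and 8.48% of all genes (11.9% in either direction). The median was 0.21 for the subunit genes and 0.00 for all genes. Genes were listed for a genotype difference that uses the same polysomal libraries. Of the 20 subunit genes, 17 lay on the lower side of the empty interval, against 53.8% of genes averaging 100 counts or more. This comparison, and that in dKO below, is therefore conditional on the listing. Psmb2 (0.46 ± 0.12), Psmd12 (0.33 ± 0.07), Psmd7 (0.31 ± 0.08) and Psmd5 (0.28 ± 0.08) were higher, and the activators Psme3 (-0.03 ± 0.05) and Psme4 (0.00 ± 0.06) had the lowest values. A fit of the WT libraries alone, added after the data were seen, called 13 higher and 0 lower, where 16.4% and 18% of all genes were called. With any 1 of the 4 WT libraries left out the count was 0, without either dKO total library it was 1, and without either dKO polysomal library it was 13. Calls over all genes moved the same way, from 200 higher genes to 22 to 30, to 80 to 84 and to 893 to 916 in these fits.

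In dKO, 5 subunit genes were higher and 8 lower in polysomal than in total RNA, against 43.1% and 46.9% of all genes (90% in either direction). The higher genes were Psmb5 (1.63 ± 0.14), Psmc3 (1.48 ± 0.12), Psmc5 (0.996 ± 0.074), Psmd7 (0.25 ± 0.09) and Psmd5 (0.20 ± 0.09). The last 2 were not called in a fit of the dKO libraries alone (adjusted p = 0.0693 and 0.102), with the empty interval at 0 (0.0702 and 0.172) or without dKO total replicate 1 (0.126 and 0.0521), and the call of Psmd5 was also lost in 6 other settings, including limma-voom and the replicate block. The lower genes included Psmd10 (-1.43 ± 0.20), Psma2 (-1.09 ± 0.14), Psma4 (-0.84 ± 0.17) and both activators (Psme4 -0.44 ± 0.06, Psme3 -0.27 ± 0.05). Because each fraction comparison shares libraries with the genotype comparisons, they are not independent of each other.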

How the data were processed

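Total and polysomal RNA of 2 genotypes were sequenced in 8 libraries, grouped by the sample titles. The authors deposited raw read counts by gene symbol in 2 tables, with every column matched to a library. Per the labels, RNA was extracted with Trizol and the libraries kept the strand. The submitters' processing notes list the tools HTSeq, TopHat and FastQC, and mm9, mm10 and GRCm38 as builds. The strand setting, annotation, treatment of multi-mapping reads and polysome collection were not given in the sources. Counts of genes with near-identical copies may be split.

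Each table was fitted whole with edgeR 4.0.16 in R 4.3.3 (quasi-likelihood F test, TMM, filterByExpr, Benjamini-Hochberg, threshold 0.05). Fraction and interaction contrasts used 8 libraries with 4 group means. Standard errors are the absolute log2 fold change over the square root of F. Alternatives used limma 3.58.1, DESeq2 1.42.0, other scalings and filters, a loess GC offset (span 0.5) and left-out libraries. The test was checked on simulated data with the same spread in every group and no listing of genes by genotype difference. That check does not cover the polysomal data, in which the spread differed between groups and genes were listed for a difference. Lengths, GC content and positions are from GENCODE M21 (GRCm38), and shared stretches were counted over its transcripts and their reverse complements. The members and lists were chosen with earlier results of these data known. Any member could be named. Total RNA values of every library are given for the 6 largest total RNA changes and the inducible and tissue-restricted genes. They are also given for the most and least abundant genes of a role, except Psmc2, Psmd7, Psmd11 and the assembly chaperones. For the 4 largest interactions, polysomal values of every library are given.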

Additional observations from a re-analysis of the deposited data

Results flagged for a closer look

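For 14 of the 20 subunit genes in both tables the genotype difference differed between polysomal and total RNA by the interaction test. On the log2 scale the difference of differences was -0.93 for Psma1, -1.41 for Psma2, -1.03 for Psma4, -0.20 for Psma6, -0.23 for Psmb1, -0.51 for Psmb7, -0.84 for Psmc6, -1.65 for Psmd10, -0.82 for Psmd12, -0.24 for Psme3 and -0.44 for Psme4. It was 1.37 for Psmb5, 1.36 for Psmc3 and 0.80 for Psmc5. The polysomal table lists genes for differing between genotypes, and 89.5% of all genes were called, so the count of 14 is not a result about these genes.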

How the results depend on the processing

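In total RNA, the count of 29 lower subunit genes stayed at 29 under RLE and upper-quartile scaling, limma-voom, both filters and the GC offset, was 26 with DESeq2 and 24 to 26 with a library left out, and was 12 of 20 in the fit of all 8 libraries, which tests fewer genes. No subunit gene was called higher in any of these. In polysomal RNA the count of 17 lower was 10 with RLE scaling, 9 with DESeq2, 6 with the GC offset and 11 to 17 with a library left out, and the 3 higher were 7 with the GC offset and 2 to 3 with a library left out. The interaction counts of 11 lower and 3 higher were 1 and 9 with the GC offset, and 9 to 14 and 3 to 4 with a library left out. Higher calls for WT polysomal against total RNA were 7 with DESeq2, 11 with limma-voom, 13 with WT libraries alone and 0 to 13 with a library left out, against 4. Those for dKO were 8 with RLE scaling or DESeq2, 3 with the empty interval at 0, 3 with dKO libraries alone and 4 to 7 with a library left out, against 5. The lower calls for dKO were 8 to 9, and those for WT 0, with a library left out. The cause of these shifts was not tested. Where a left-out library leaves 1 in an arm, that library is assumed to vary like the others.

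Under the GC offset the polysomal log2 fold change reversed for Psma6 (0.34), Psmb1 (0.61), Psmb5 (-0.087), Psmc6 (0.29), Psmd14 (0.25), Psmd5 (0.40), Psmd6 (0.27) and Psme4 (0.23), and the interaction for Psma6 (0.52), Psmb1 (0.58), Psmc6 (0.61) and Psme4 (0.43). Other scalings gave no reversal. Per longest in place of median transcript, the role medians moved from 54.1 to 39.1 (alpha), 119 to 106 (beta), 0.809 to 0.367 (inducible and thymic), 84.2 to 81.0 (ATPase), 68.4 to 51.3 (non-ATPase base), 81.8 to 49.0 (lid), 33.5 to 18.1 (chaperones) and 262 to 45.5 CPM per kb (activators).

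With the replicate number as a block, 29 genes were lower in total RNA and 17 lower and 3 higher in polysomal RNA, as without it; the interaction gave 10 lower and 3 higher, WT 3 higher, and dKO 4 higher and 9 lower. The deviations of same-numbered libraries correlated at -0.00967 to 0.0442. Such low values cannot decide whether same-numbered libraries came from the same tissue, since the noise of single libraries can hide it. The 4 genes not tested had at most 12 counts in a total RNA library, which does not tell low expression from limited depth.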
